A study of Homo sapiens with 4 samples.

Results

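The adhesion G protein-coupled receptors (adhesion GPCRs) of A375, an established human melanoma line, were described from the RNA of 4 libraries. The members were the protein-coding genes whose symbols begin with ADGR, and 27 of them are described, among the 2864 genes with values in the table, 2258 of which are protein-coding. The members were selected on their symbols and on no measured value, but the family itself was picked with results of these libraries already known, so the values below are a description. The C subfamily carries CELSR symbols and was not analysed here. The libraries were untreated parental A375 cells (A375P), a vemurafenib-resistant A375 strain kept under a gradient of vemurafenib (A375R), A375 cells cultured for 48 h with DMSO alone (A375+DMSO) and A375 cells cultured for 48 h with vemurafenib at 2 μM (A375+VEM). The drug inhibits the BRAF kinase, and the study concerned melanoma with mutated BRAF. All 4 were labelled as wild-type A375, a label that does not give their BRAF status. They were grown in the same medium and carried the same batch label, and A375R is 1 strain derived by dose escalation.

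Each condition had 1 library, so differences between conditions lack replication and are given without p-values. The authors deposited a read count and a TPM for each gene, where TPM corrects the count for gene length and for the total of its library. The reads of the genes at hand summed to 2054277 in A375P, 1891215 in A375+DMSO, 1932550 in A375+VEM and 1963230 in A375R, and the depth of the whole libraries is not known from them. For any 2 libraries, (TPM + 0.1) of one was divided by that of the other for each gene that reached a TPM of 1 in either. A ratio past 1.5-fold was counted as higher or lower. Log2 ratios include the 0.1 and so understate differences of low genes. Fold values are ratios of TPM without the 0.1, with 95% exact (Clopper-Pearson) intervals from the reads of both libraries. These intervals cover counting error only and compare libraries, not conditions.

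Adhesion GPCRs combine a long extracellular region built of adhesion domains with the membrane-spanning core of a GPCR. In most of them the extracellular part cleaves itself at a conserved site, and the new end of the membrane part can act as a tethered agonist once the extracellular part is pulled away by a ligand on a neighbouring cell or in the matrix. They thereby couple cell contact and matrix binding to G proteins and cyclic AMP. In melanoma, ADGRG1 (GPR56) is the member best known, as a receptor for collagen and tissue transglutaminase that restrains tumour growth in experimental models.

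The lineage markers that define melanocytic cells lie outside the alphabetical range of the table, which ends at symbols beginning with CAC. Of 6 pigment cell genes inside it, BACE2 was the most abundant in A375P at a TPM of 47.1, ABCB5 had at most 6 reads in any library, and the summed TPM of the 6 was 93.2 in A375P, 63.2 in A375+DMSO, 87.2 in A375+VEM and 69.7 in A375R. Of 7 leukocyte markers, among them AIF1, BTK and C1QA, none reached a TPM of 1. Their summed TPM was 0.346 in A375P, 0.565 in A375+DMSO, 0.760 in A375+VEM and 1.23 in A375R, BLK was the most abundant with 8 reads in A375R, and C1QA was at 0 in all 4 libraries. This bears on the ADGRE members below, which are best known from leukocytes.

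Of the 27 members, 12 had a TPM of at least 1 in all 4 libraries, 2 had it in some libraries and 13 had it in none. By library, 12 members reached a TPM of 1 in A375P, 14 in A375+DMSO, 13 in A375+VEM and 13 in A375R. Of the protein-coding genes at hand, 65.6% did so in A375P, 68.4% in A375+DMSO, 69.2% in A375+VEM and 66.8% in A375R. The members summed to a TPM of 382.6 in A375P, 452.1 in A375+DMSO, 551.2 in A375+VEM and 505.9 in A375R, or 0.451%, 0.516%, 0.624% and 0.566% of the TPM of all genes at hand. ADGRE5 and ADGRG1 were the leading members in every library. Together they made up 67.4% of the adhesion GPCR TPM in A375P, 60.1% in A375+DMSO, 49.8% in A375+VEM and 58.7% in A375R. The other 25 members carried most of the difference in the total, with a summed TPM of 124.8 in A375P and 276.9 in A375+VEM.

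**Figure D1:**
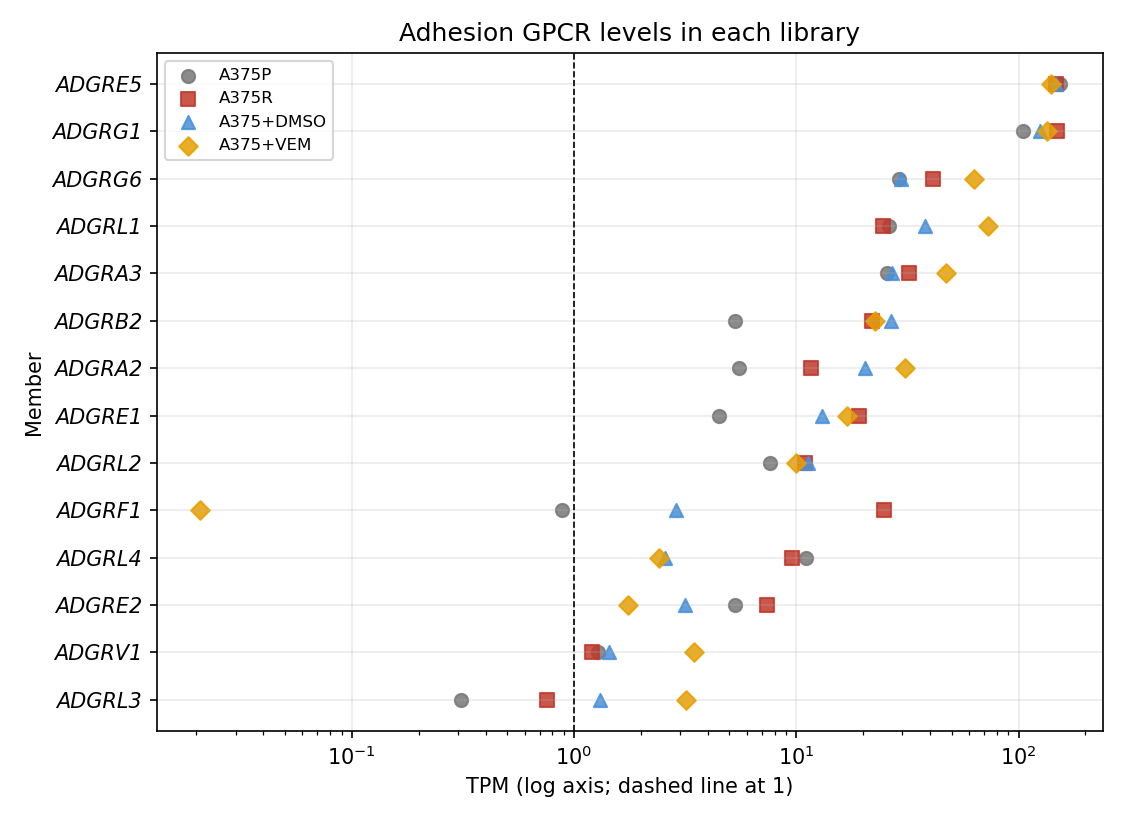
TPM (log axis) of the 14 members that reached a TPM of 1 in any library, ordered by mean TPM, with 1 point per library and a dashed line at a TPM of 1. ADGRE5 and ADGRG1 lie at 104.9 or more in all 4 libraries, while ADGRF1 runs from 0.0207 in A375+VEM to 24.9 in A375R.

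The libraries without vemurafenib did not match each other, and this touches each comparison. Between A375+DMSO and A375P, 45.7% of 1720 genes compared were past 1.5-fold, against 44.3% of 1689 between A375R and A375P, 46.2% of 1784 between A375+VEM and A375+DMSO, and 20.5% of 1702 between A375R and A375+DMSO. A375P had the lowest TPM of the 4 libraries for 8 of the 14 members that reached a TPM of 1 anywhere, and for 37.4% of the 1817 genes of the table that did so. The counts of members are therefore given with A375P and with A375+DMSO as the reference. In bulk RNA, fewer cells expressing a gene and less RNA per cell cannot be told apart.

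In A375R against A375P, 13 members could be compared. Of these, 4 were higher in A375R (ADGRA2, ADGRB2, ADGRE1 and ADGRF1), none was lower and 9 lay within 1.5-fold. Over all genes, 26.8% were higher and 17.5% lower. ADGRF1 entered the comparison only through its level in A375R. The median log2 ratio was 0.50 for the 13 members and 0.10 for all genes compared. Against A375+DMSO, 14 members could be compared and 3 were higher in A375R (ADGRE2, ADGRF1 and ADGRL4) and 3 lower (ADGRA2, ADGRL1 and ADGRL3), where 10.5% of all genes were higher and 9.99% lower. ADGRF1 was the single member higher in A375R than in both A375P and A375+DMSO, ADGRA2 was past 1.5-fold in opposite directions against them, and no member was lower than in both. Of 1652 genes compared with both, 5.63% were higher in A375R than in both, 2.00% were lower than in both and 4.36% were past 1.5-fold in opposite directions.

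In A375+VEM against A375+DMSO, 6 of 14 members were higher (ADGRA2, ADGRA3, ADGRG6, ADGRL1, ADGRL3 and ADGRV1), 2 were lower (ADGRE2 and ADGRF1) and 6 lay within 1.5-fold. Over all genes, 26.5% were higher and 19.7% lower. The median log2 ratio was 0.24 for the members compared and 0.11 for all genes. Against A375P, the same 6 members were higher in A375+VEM, and ADGRB2 and ADGRE1 were higher as well, 8 of 13 in all where 36.9% of all genes were higher and 62.1% were past 1.5-fold either way. Of 1760 genes compared with both references, 21.4% were higher in A375+VEM than in both and 13.8% were lower than in both, as ADGRE2 was, while 1.93% and no member were past 1.5-fold in opposite directions. ADGRE2 and ADGRL4 were lower than in A375P, where 25.3% of all genes were lower, and ADGRF1 was not compared since it lay below a TPM of 1 in both libraries. In A375+DMSO against A375P, with no vemurafenib in either, 5 of 14 members were higher (ADGRA2, ADGRB2, ADGRE1, ADGRF1 and ADGRL3) and 2 lower (ADGRE2 and ADGRL4), where 26.8% of all genes were higher and 18.9% lower. In that pair ADGRF1 and ADGRL3 entered only through A375+DMSO, where they were high. ADGRL3 likewise entered A375+VEM against A375P only through A375+VEM and A375R against A375+DMSO only through A375+DMSO, and ADGRF1 entered A375+VEM against A375+DMSO only through A375+DMSO, so the filter favoured the direction counted for each. These comparisons share libraries and are not independent of each other.

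**Figure D2:**
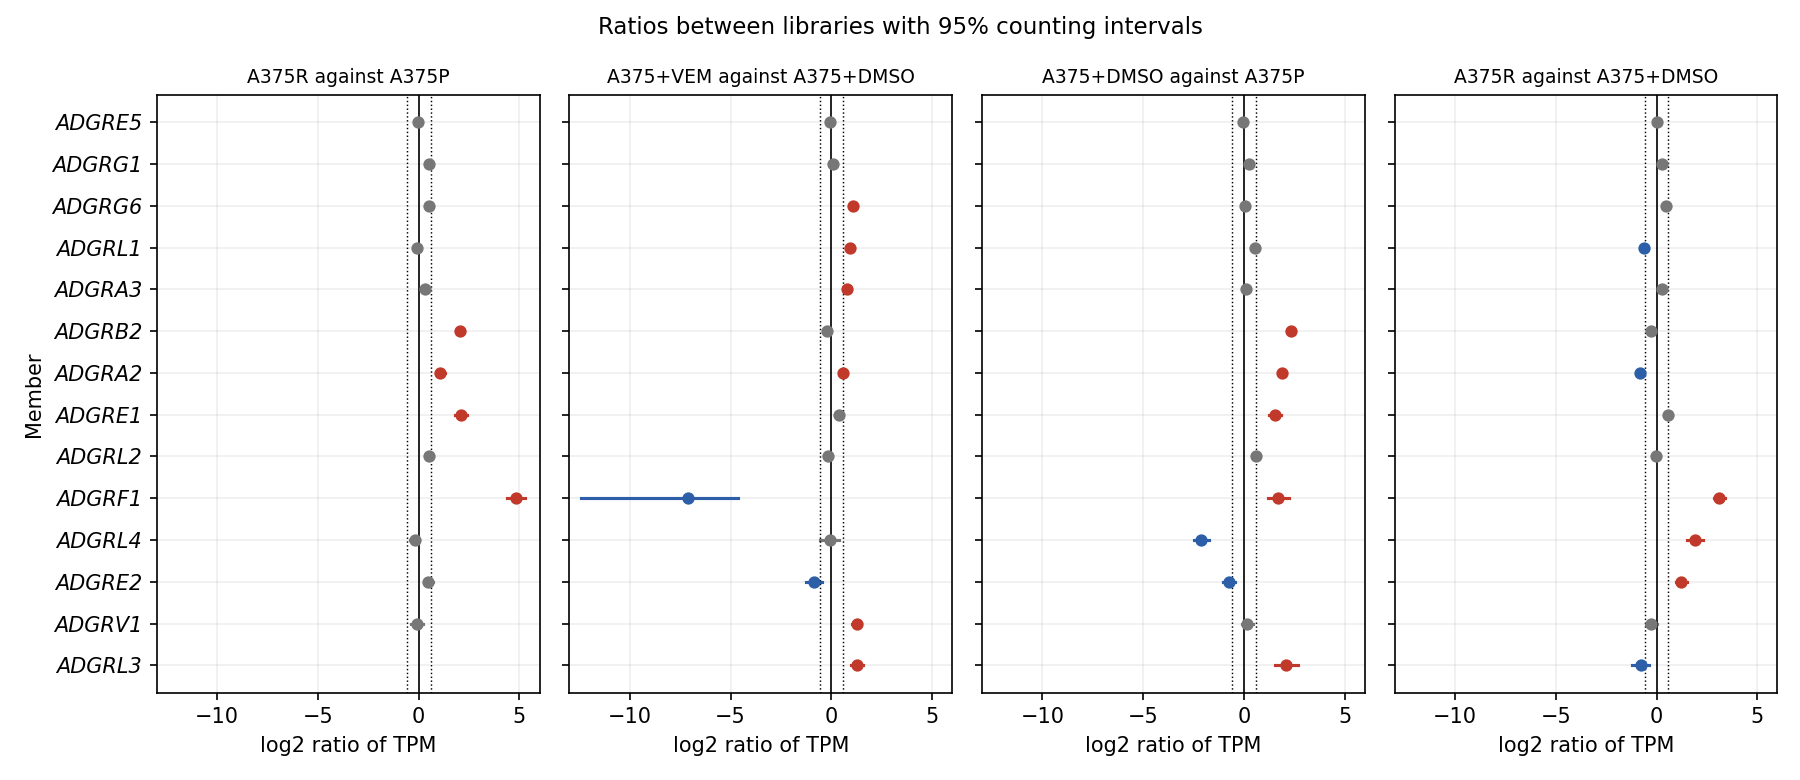
Log2 ratios of TPM for the members compared in each of 4 pairs of libraries, with 95% exact counting intervals as bars, dotted lines at 1.5-fold, and red, blue and grey for members higher, lower or within 1.5-fold on the scale of (TPM + 0.1). ADGRF1 has the widest spread, from 28.2-fold higher in A375R than in A375P to 1 read in A375+VEM.

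The F subfamily held the member that varied most. ADGRF1 (GPR110), a receptor known to bind synaptamide, a lipid amide made from docosahexaenoic acid, occupies positions 46965440 to 47010099 of chromosome 6, minus strand, in the coordinates of the authors' table (hg19 per the submitters' processing notes). Its reads numbered 46 in A375P, 140 in A375+DMSO, 1 in A375+VEM and 1170 in A375R, with TPM values of 0.883, 2.88, 0.0207 and 24.9. A375R was high and A375+VEM was at the edge of detection, with the libraries without drug between them. The level in A375R was 28.2-fold that in A375P (95% interval 21.0 to 38.7) and 8.63-fold that in A375+DMSO (95% interval 7.24 to 10.4). A375+VEM reached 0.00719 of the A375+DMSO level (95% interval 0.000181 to 0.0407), which rests on 1 read. The log2 ratio of that pair on the scale of (TPM + 0.1), -4.63, depends on the number added, with -1.93 when 1 was added and -6.56 when 0.01 was. In A375R, ADGRF1 ranked among the 5 most abundant adhesion GPCRs, and it raised the summed TPM of its subfamily to 25.6, from 1.23 in A375P and 3.31 in A375+DMSO.

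The other F members were near the detection limit. ADGRF5 (GPR116), which controls surfactant in the lung, had 3 reads in A375P, 7 in A375+DMSO, 1 in A375+VEM and 15 in A375R, and lies 42764 bp from ADGRF1 on the same strand. ADGRF2 and ADGRF4, farther along the chromosome, had at most 2 and 4 reads in any library. ADGRF3, on chromosome 2, had between 10 and 14 reads in every library. None of these 4 entered the counts of members compared, since no library reached a TPM of 1.

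The bases before the start of ADGRF1 are shown beside those of ADGRG6, on the same chromosome, because the former was highest in A375R and the latter in A375+VEM. They are the 250 bases upstream of the RefSeq start on GRCh38.p14, a build other than that of the table, at chr6:47042333-47042582 on the minus strand for ADGRF1 and chr6:142301757-142302006 on the plus strand for ADGRG6. Capitals mark a match to the TEAD core motif GGAATG on either strand, searched because TEAD factors are the DNA-binding partners of YAP and TAZ, the effectors the study examined.
ADGRF1: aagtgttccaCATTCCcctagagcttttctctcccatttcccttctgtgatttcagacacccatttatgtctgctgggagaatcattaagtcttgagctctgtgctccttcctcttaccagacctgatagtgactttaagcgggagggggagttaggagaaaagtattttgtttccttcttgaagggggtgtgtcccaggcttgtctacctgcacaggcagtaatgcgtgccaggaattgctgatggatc
ADGRG6: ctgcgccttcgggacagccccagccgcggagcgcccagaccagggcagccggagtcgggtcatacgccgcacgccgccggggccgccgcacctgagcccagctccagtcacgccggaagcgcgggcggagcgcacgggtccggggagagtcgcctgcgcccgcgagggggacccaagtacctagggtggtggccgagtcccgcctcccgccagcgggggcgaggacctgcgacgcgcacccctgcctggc
The ADGRF1 window held 2 CpG dinucleotides and was 47.6% G and C, whereas the ADGRG6 window held 34 and was 77.6% G and C. Over 35116 windows of the same length in the RefSeq table, the medians were 11 CpG dinucleotides and 58.0%. The single match to GGAATG in ADGRF1 was on the reverse strand, and 11.9% of all windows held at least 1 match. Among the other members, the window of ADGRL4 and 1 of 8 windows of ADGRL2 held at least 1 such match too. Neither the ADGRF1 nor the ADGRG6 window held the AP-1 motif TGANTCA, which 6.57% of all windows held. It was found in the windows of ADGRE3 and ADGRF4 and in 1 of 3 windows of ADGRG1. The ADGRL4 window held 2 matches, and only the first, to GGAATG, was recorded by motif. Whether its other match was to GGAATG or to TGANTCA is therefore not known here. The windows of ADGRA3 (32 CpG dinucleotides), ADGRB2 (38) and ADGRV1 (15) were above that median and that of ADGRE1 (3) was below it. A match is a description of the letters, and no binding was measured here.

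The L subfamily, the latrophilins and ADGRL4, showed a different order in each member. ADGRL1, a receptor for teneurins and for the spider toxin that gave the group its name, lies on chromosome 19 from 14258549 to 14316997. It had 1755 reads in A375P, 2385 in A375+DMSO, 4571 in A375+VEM and 1498 in A375R, with TPM values of 26.1, 38.0, 73.3 and 24.6. A375+VEM was the highest, 1.93-fold above A375+DMSO (95% interval 1.84 to 2.03) and 2.81-fold above A375P (95% interval 2.66 to 2.97), while A375R was 0.649 of A375+DMSO (95% interval 0.608 to 0.692) and not distinguishable from A375P at this depth (ratio 0.945, 95% interval 0.881 to 1.01).

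ADGRL3, which binds FLRT proteins and teneurins, had 34 reads in A375P, 134 in A375+DMSO, 325 in A375+VEM and 75 in A375R. A375+VEM exceeded A375+DMSO 2.44-fold (95% interval 1.99 to 3.01) and A375+DMSO exceeded A375P 4.22-fold (95% interval 2.88 to 6.35). A375R was 0.578 of A375+DMSO (95% interval 0.430 to 0.773), which lay within 1.5-fold when 1 was added to the TPM. Against A375P, A375R was 2.44-fold higher (95% interval 1.61 to 3.78), so the direction turned with the reference. That pair entered no count, since ADGRL3 lay below a TPM of 1 in both libraries. The antisense gene ADGRL3-AS1, which overlaps its end, had 0 reads in all 4 libraries. ADGRL2, another latrophilin, had TPM values between 7.58 and 11.3 and passed 1.5-fold in none of the comparisons.

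ADGRL4 (ELTD1), best known from blood vessel endothelium, ran the other way. It had 342 reads in A375P, 74 in A375+DMSO, 69 in A375+VEM and 268 in A375R, so A375P and A375R were high and both 48 h cultures were low. A375+DMSO was 0.232 of A375P (95% interval 0.178 to 0.299), and A375+VEM was not distinguishable from A375+DMSO at this depth (ratio 0.939, 95% interval 0.667 to 1.32). Of 3 endothelial markers, APLNR had at most 2 reads and ANGPT2 at most 11. AOC3 had 144 reads in A375P, 21 in A375+DMSO, 40 in A375+VEM and 15 in A375R, and it alone made up most of their summed TPM of 4.09 in A375P, 0.893 in A375+DMSO, 1.54 in A375+VEM and 0.573 in A375R. The part of AOC3-expressing cells in the ADGRL4 values was not tested.

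In the G subfamily, ADGRG1 was abundant in all libraries and ADGRG6 moved. ADGRG1 lies on chromosome 16 from 57653605 to 57698951 and had 4512 reads in A375P, 5022 in A375+DMSO, 5352 in A375+VEM and 5795 in A375R, with TPM values of 104.9, 125.2, 134.3 and 149.2. A375R was 1.42-fold above A375P (95% interval 1.37 to 1.48) and 1.19-fold above A375+DMSO (95% interval 1.15 to 1.24), so its level differed beyond counting error and stayed within 1.5-fold. ADGRG6 (GPR126), a collagen and laminin receptor that raises cyclic AMP and drives myelination by Schwann cells, had 1732 reads in A375P, 1646 in A375+DMSO, 3475 in A375+VEM and 2221 in A375R. A375+VEM was 2.13-fold above A375+DMSO (95% interval 2.00 to 2.26) and 2.17-fold above A375P (95% interval 2.04 to 2.30), and the 2 libraries without drug lay at TPM values of 29.0 and 29.6. ADGRG6 was thus among the members for which the choice of reference made little difference.

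ADGRG3 (GPR97), a receptor of granulocytes, had 12 reads in A375P, 13 in A375+DMSO, 1 in A375+VEM and 15 in A375R. ADGRG2, which is known from the epididymis, had 7, 6, 26 and 14 reads in the same order. ADGRG4 and ADGRG7 had at most 8 and 2 reads. These 4 did not reach a TPM of 1 in any library and were not compared.

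The A subfamily was highest in A375+VEM, with summed TPM values of 31.3 in A375P, 47.6 in A375+DMSO, 78.1 in A375+VEM and 44.0 in A375R. ADGRA2 (GPR124), a coreceptor with RECK for WNT7 in brain blood vessels, had 285 reads in A375P, 988 in A375+DMSO, 1481 in A375+VEM and 543 in A375R. A375R was 2.11-fold above A375P (95% interval 1.82 to 2.44) and 0.568 of A375+DMSO (95% interval 0.510 to 0.631), so its direction turned with the reference. A375+VEM was 1.51-fold above A375+DMSO (95% interval 1.39 to 1.64), at the edge of the threshold and within it when 1 was added to the TPM or ratios were centred on their median, and 5.61-fold above A375P (95% interval 4.94 to 6.39). ADGRA3 (GPR125) had 1003, 1138 and 989 reads in A375P, A375R and A375+DMSO and 1710 in A375+VEM, which was 1.74-fold above A375+DMSO (95% interval 1.61 to 1.89) and 1.84-fold above A375P (95% interval 1.70 to 1.99). ADGRA1, known from the nervous system, had at most 5 reads.

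The B subfamily, the brain angiogenesis inhibitors, was represented by ADGRB2. It had 247 reads in A375P, 1157 in A375+DMSO, 977 in A375+VEM and 924 in A375R, with TPM values of 5.30, 26.6, 22.6 and 21.9. A375P was low and the other 3 lay close together. The 4.14-fold difference of A375R from A375P (95% interval 3.60 to 4.79) compares with a 5.02-fold difference of A375+DMSO from A375P (95% interval 4.37 to 5.78). ADGRB3, a synaptic receptor for C1q-like proteins, had 31, 42, 29 and 42 reads in A375P, A375+DMSO, A375+VEM and A375R, with TPM values of 0.642, 0.932, 0.648 and 0.962. ADGRB1, an engulfment receptor for dying cells, had between 4 and 9 reads.

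The E subfamily held the member with the highest mean TPM, which was also the steadiest of those compared. ADGRE5 (CD97), which binds CD55, lies on chromosome 19 from 14491956 to 14519537 and had TPM values of 152.9 in A375P, 146.7 in A375+DMSO, 139.9 in A375+VEM and 148.0 in A375R. The highest was 1.09-fold the lowest, the smallest spread among the 14 members compared. ADGRE1 (EMR1), the human counterpart of the mouse macrophage antigen F4/80, had 125 reads in A375P, 339 in A375+DMSO, 436 in A375+VEM and 480 in A375R. A375P was low, A375R was 4.25-fold above it (95% interval 3.49 to 5.22) and 1.46-fold above A375+DMSO (95% interval 1.27 to 1.69). Each of the leukocyte markers given above stayed below a TPM of 1, and their summed TPM had the same order of libraries as ADGRE1, whose TPM was 4.50 in A375P, 13.1 in A375+DMSO, 16.9 in A375+VEM and 19.1 in A375R. The order of the markers rests on few reads, with BLK at 0 in A375P, 5 in A375+DMSO, 1 in A375+VEM and 8 in A375R. The part of leukocyte RNA in the ADGRE1 values was not tested.

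ADGRE2 (EMR2), a chondroitin sulfate receptor of myeloid cells, had 294 reads in A375P, 164 in A375+DMSO, 90 in A375+VEM and 371 in A375R. A375+VEM was the lowest, at 0.553 of A375+DMSO (95% interval 0.423 to 0.719) and 0.330 of A375P (95% interval 0.258 to 0.420). The extracellular repeats of ADGRE2 and ADGRE5 are nearly identical in sequence, and ADGRE5 had 4575 reads in A375P, so reads could be split between them and the ADGRE2 values are uncertain. ADGRE3 had 0 reads in A375P and A375R and 1 read in each 48 h culture. The remaining subfamilies have 1 member each among the 27 described. ADGRV1, a very large receptor of inner ear hair cells and photoreceptors that is mutated in Usher syndrome, had 212 reads in A375P, 223 in A375+DMSO, 530 in A375+VEM and 181 in A375R, and A375+VEM was 2.39-fold above A375+DMSO (95% interval 2.04 to 2.81) and 2.70-fold above A375P (95% interval 2.30 to 3.18). ADGRD1 (GPR133), which raises cyclic AMP, had 17, 16, 6 and 6 reads in the same order and was not compared.

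**Figure D3:**
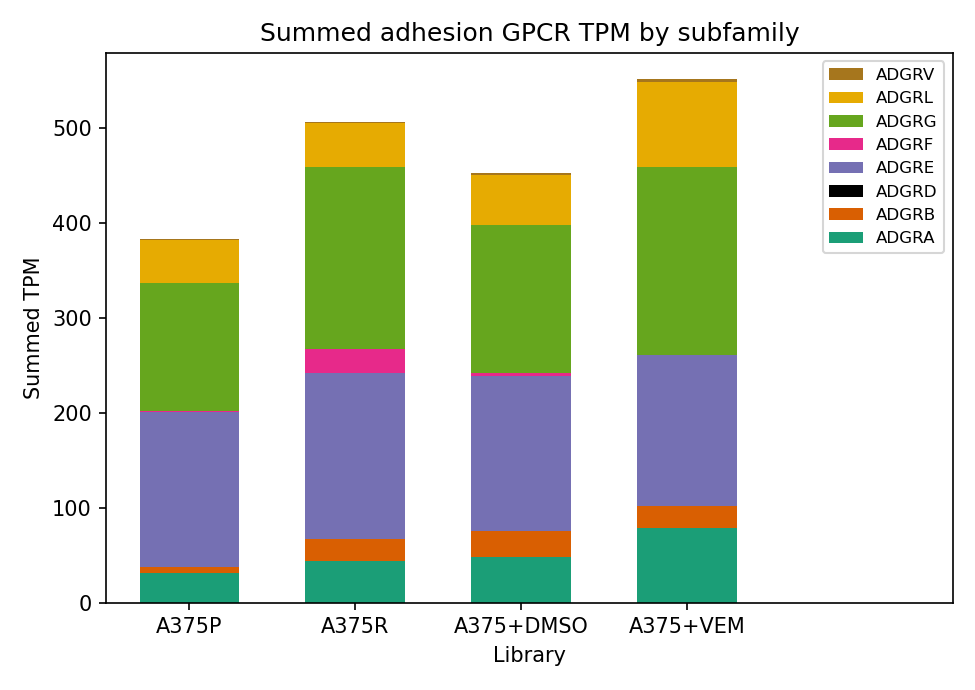
Summed TPM of the 27 members in each library, stacked by subfamily letter. The E and G subfamilies make up most of each bar, and the A and L segments are tallest in A375+VEM, at 78.1 and 88.9.

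Levels of members that lie side by side in the genome were compared next. Gaps under 1 Mb joined members into groups on chromosomes 6, 16 and 19. On chromosome 6, ADGRF5, ADGRF1, ADGRF2 and ADGRF4 followed each other, and ADGRF1 alone passed a TPM of 1. ADGRF1 and ADGRF5 had the same order of libraries, with A375R highest, then A375+DMSO, A375P and A375+VEM. ADGRF5 had at most 15 reads in a library and stayed below a TPM of 1, so it entered no count. Its A375R level was 5.54-fold that of A375P (95% interval 1.57 to 29.8). Its interval for A375R against A375+DMSO includes 1 (0.85 to 6.42). So do those for A375+DMSO against A375P, A375+VEM against A375+DMSO and A375+VEM against A375P. On chromosome 16, ADGRG3 lay 3205 bp from ADGRG1, with TPM values in A375P of 104.9 for ADGRG1 and 0.524 for ADGRG3. ADGRG3 had its lowest TPM, 0.0472, in A375+VEM, where ADGRG1 stood at 134.3. On chromosome 19, ADGRL1, ADGRE5, ADGRE3 and ADGRE2 followed each other. There A375+VEM had the highest level of ADGRL1 and the lowest of ADGRE2, while ADGRE5 between them varied least.

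**Figure D4:**
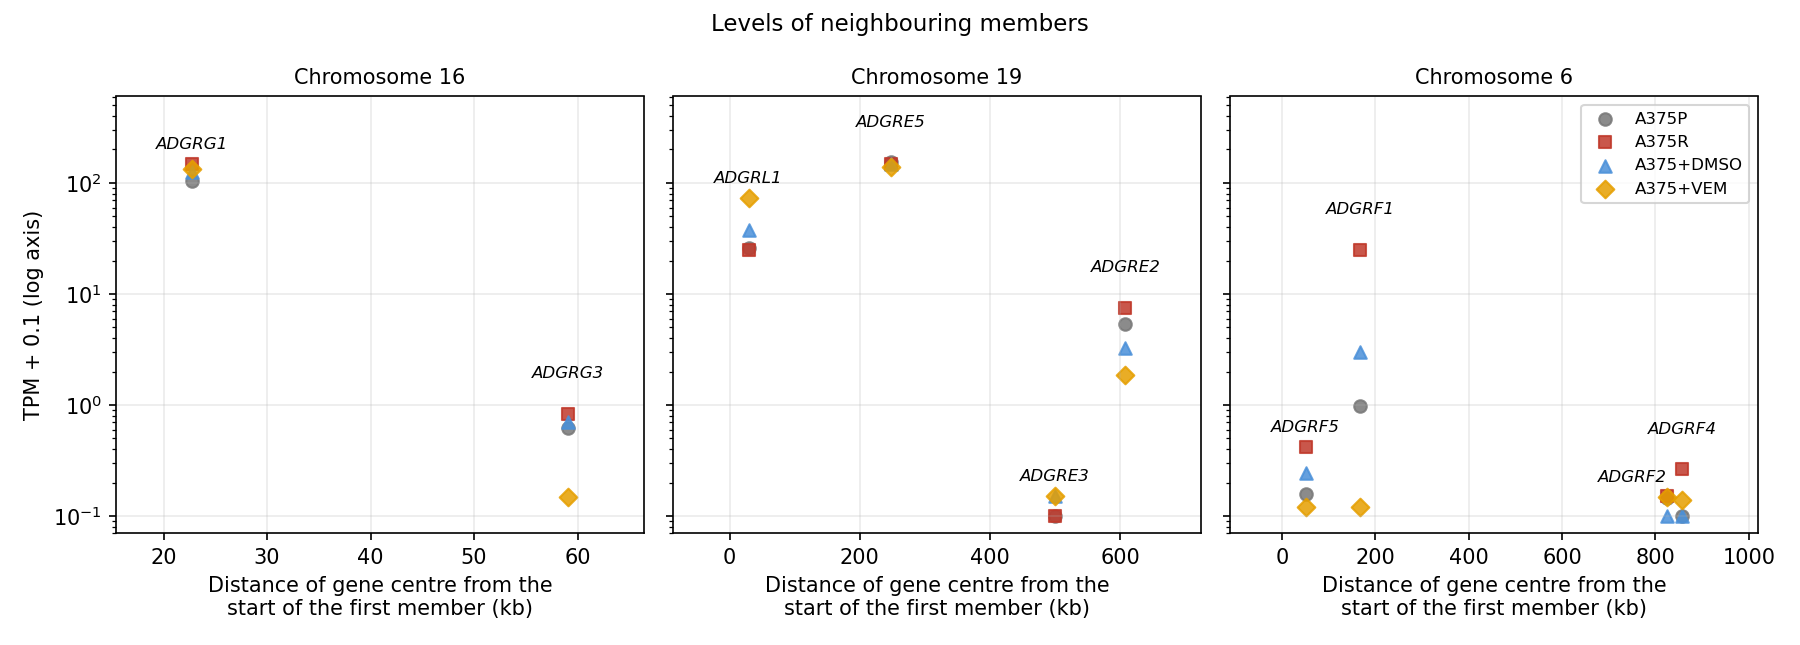
TPM + 0.1 (log axis) of members with neighbours under 1 Mb away, against the distance of each gene's centre from the start of the first member of its group, with 1 point per library. ADGRG1 and ADGRE5 have a TPM of 104.9 or more in all libraries, the neighbours drawn beside them have 73.3 or less, and ADGRF1 spreads more widely than its neighbours.

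The known signalling partners within the alphabetical range were described alongside. Of 10 adenylyl cyclases, the enzymes that make cyclic AMP, 5 could be compared. None was higher and ADCY1 was lower in A375R than in A375P, with a log2 ratio of -1.39, and ADCY1 (-1.81) and ADCY3 (-0.68) were lower in A375+VEM than in A375+DMSO. Over all genes, 26.8% were higher and 17.5% lower in the first pair, and 26.5% and 19.7% in the second. ADCY1 passed the minimum TPM only through A375P in the first and only through A375+DMSO in the second, where it was high. Their median log2 ratio was 0.29 in the first pair and -0.17 in the second, beside 0.10 and 0.11 for all genes. In A375R against A375+DMSO, where 20.5% of all genes were past 1.5-fold, none of the 5 was, with ADCY1 at -0.45. ADCY1 was already lower in A375+DMSO than in A375P, at -0.94.

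Both beta-arrestins, which bind activated GPCRs and remove them from the surface, were higher in A375R than in A375P, ARRB1 at a log2 ratio of 1.83 and ARRB2 at 0.90, where 44.3% of all genes were past 1.5-fold either way. They were also higher in A375+DMSO than in A375P, at 1.49 and 0.92, where 45.7% of all genes were past it. Both lay within 1.5-fold between A375R and A375+DMSO, where 20.5% of all genes were past it. The same held between A375+VEM and A375+DMSO, where 46.2% of all genes were past it. The C1q-like ligands of ADGRB3 had TPM values of at most 6.42, that of C1QL1 in A375+DMSO. C1QL1 had 10, 77, 43 and 44 reads in A375P, A375+DMSO, A375+VEM and A375R, C1QL4 had 5, 85, 34 and 52, and C1QL2 and C1QL3 had at most 3. C1QL1 and C1QL4 were higher than in A375P in A375R (log2 ratios 2.15 and 3.13) and in A375+DMSO (2.89 and 3.78). A375P lay below the minimum TPM for both, so the filter favoured that direction. Both were lower than in A375+DMSO in A375+VEM (-0.81 and -1.27) and in A375R (-0.75 and -0.65). Of 4 genes of the BAIAP2 group, which includes cytoplasmic partners of ADGRB1, BAIAP2L1 (1.57) and BAIAP3 (1.25) were higher and BAIAP2L2 (-1.06) was lower in A375R than in A375P. The same 3 genes passed 1.5-fold in the same directions in A375+DMSO against A375P, at 1.07, 0.93 and -1.45. In A375R against A375+DMSO none of the 4 passed it, where 20.5% of all genes did. BAIAP3 passed the minimum TPM only through A375R in the first of these pairs and only through A375+DMSO in the second, so the filter favoured its direction. BAIAP2L1 had 499 reads in A375P, 983 in A375+DMSO, 280 in A375+VEM and 1340 in A375R. It was thus highest in A375R and lowest in A375+VEM. ADGRE2 and ADGRF1 had the same extremes, ADGRF1 with a much wider span, as did ADGRF5 and ADGRG3 on few reads. The share of all genes with these extremes was not counted.

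Set beside 29 other GPCR genes in the table, the adhesion GPCRs carried more RNA per length. The 29 summed to a TPM of 73.1 in A375P, 59.8 in A375+DMSO, 68.2 in A375+VEM and 60.8 in A375R, below the adhesion GPCR sums in every library. In A375R against A375P, 9 of the 29 could be compared, 4 were higher and 3 lower, beside 26.8% and 17.5% of all genes. Of the higher ones, ADRA1D, ADRB1 and AGTR1 passed the minimum TPM only through A375R, so the filter favoured their direction. Against A375+DMSO, 3 of 10 were higher in A375R and 2 lower, beside 10.5% and 9.99% of all genes. There ADORA2A and ADRA1D, both higher, passed the minimum TPM only through A375R. ACKR4, which was lower, passed it only through A375+DMSO. AGTR1, a receptor for angiotensin, had a log2 ratio of 2.90 in A375R against A375P, with 15 reads in A375P and 114 in A375R, and passed the minimum TPM there only through A375R. In A375+VEM against A375+DMSO, 11 could be compared, 5 were higher and 2 lower, beside 26.5% and 19.7% of all genes. The 2 lower genes passed the minimum TPM only through A375+DMSO. Of the higher ones, ACKR1, ADORA2A and C3AR1 passed it only through A375+VEM, so the filter favoured the direction counted for each. C3AR1, the receptor for a complement fragment, had 17 reads in A375P, 12 in A375+DMSO, 88 in A375+VEM and 16 in A375R. Whether the adhesion GPCRs and these receptors differ in their ratios was not tested.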

How the data were processed

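RNA of 4 A375 libraries, 1 per condition, was sequenced, and groups were taken from the sample labels. The deposited table gives per gene a read count and a TPM. The authors' counts are unnormalized whole numbers. The authors' TPM relates each count to gene length and to the whole library, with the same factor for every gene of a library. The submitters' processing notes name hg19, HISAT2, TopHat2, Bowtie2 and HISAT. The counting program and strand setting are not given in the sources used here. The table used here holds symbols up to CAC. 1 incomplete row was left out. None of 26 members found in the RefSeq table (GRCh38.p14) had the same start or end there.

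Pairs of libraries were compared through (TPM + 0.1) at a threshold of 1.5-fold, for genes that reached a TPM of 1 in either library. With 1 library per condition, edgeR and other tests were not used. The members and gene lists were chosen with earlier results of these data known. Of 28 members that the symbols gave, 1 is not reported here, nor are some genes of the other lists, and they are in none of the counts and sums of members or lists. The other 27 members are named. Genes of other lists could be named where they passed 1.5-fold with at least 30 reads over the pair, up to 4 per list and pair, or as markers. C1QL2 and C1QL3 are named outside this rule. Not all that met this are named, and those named were chosen after their values were seen. Protein stretches around the cleavage site had been planned and are not shown, and the promoters of ADGRF1 and ADGRG6 and the motifs were chosen after the values were seen. Of these 27, 18 had a RefSeq promoter. 2 epithelial markers, AGR2 and AGR3, had at most 3 reads. The ratio and interval steps were tested on simulated data. Alternatives were a 2-fold threshold, a minimum TPM of 5 or none, a pseudocount of 0.01 or 1, and ratios centred on their median. A375P as the control of A375+VEM was added once the data had been seen. The software was scipy 1.17.1, pandas 2.3.3, numpy 2.4.6 and matplotlib 3.10.9 under Python 3.11.15.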

Additional observations from a re-analysis of the deposited data

Results flagged for a closer look

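ADGRF1 differed in direction between the pairs the study set up, with a log2 ratio of 4.67 in A375R against A375P and of -4.63 in A375+VEM against A375+DMSO. The second value rests on 1 read in A375+VEM and became -1.93 with a pseudocount of 1 and -6.56 with 0.01. Whether the pairs differ was not tested. The pseudogene ADGRE4P, which is not a protein-coding member and entered no comparison, had 6 reads in A375R and 8 in A375+VEM, against 2 in A375P and 0 in A375+DMSO.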

How the results depend on the processing

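No paired analysis was possible because each condition has 1 library, and for the same reason no library could be left out. No member past 1.5-fold changed direction under any alternative run. Pseudocounts of 1 and 0.01 and scaling to a median ratio of 1 left each count of members within 1.5 times its first value, but ended 2 calls. ADGRA2 in A375+VEM against A375+DMSO, first at 0.59, was at 0.57 with a pseudocount of 1 and at 0.49 with the scaling, and ADGRL3 in A375R against A375+DMSO, first at -0.72, was at -0.39 with a pseudocount of 1. The median log2 ratio over all genes, which this scaling removes, was 0.11 for A375+VEM against A375+DMSO, 0.10 for A375R against A375P, 0.09 for A375+DMSO against A375P and 0.02 for A375R against A375+DMSO. With no minimum TPM, where all 27 members are compared, 8 members were higher and 1 lower in A375R against A375P, 5 were lower in A375+VEM against A375+DMSO, and 8 were higher and 6 lower in A375R against A375+DMSO. At a TPM of at least 5, which compares fewer members, 0 were lower in A375+VEM against A375+DMSO and 3 were higher in A375+DMSO against A375P. At 2-fold, stricter by construction, 3 were higher and 1 lower in A375+VEM against A375+DMSO, 1 was lower in A375+DMSO against A375P and 0 were lower in A375R against A375+DMSO. With a pseudocount of 1, ADGRF1 was at 3.78 in A375R against A375P. In the vemurafenib and DMSO pair it was then at -1.93, and a pseudocount of 0.01 gave -6.56. In A375+DMSO against A375P, a pseudocount of 1 moved ADGRL3 from 1.78 to 0.82 and ADGRF1 from 1.60 to 1.04. Low reads widen the counting intervals.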

Other observations

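The pseudogene ADGRF5P1 had more reads than its parent gene ADGRF5 in every library. It had 58 reads in A375P, 16 in A375+DMSO, 37 in A375+VEM and 29 in A375R, where ADGRF5 had 3, 7, 1 and 15. A375R had the most reads of ADGRF5 and A375P the most of the pseudogene. Reads from near-identical stretches of such a pair could be assigned to either, so both values are uncertain. The antisense gene ADGRA1-AS1 had 0 reads in all 4 libraries.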
